A study of Mus musculus with 8 samples.

Results

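Chst9, Pcsk5, Dcdc5, Ankrd31, Luzp2, P3h2, Plcb4, Dlg2 and Kcnh8 are 9 of the 21887 protein-coding genes of the mouse annotation, and none of them is among the dendritic cell markers used below. They were chosen because more open chromatin had been called at them in type 1 than in type 2 conventional dendritic cells of these same libraries. The difference between the subsets at these genes is therefore described here and not tested. All summits inside the 9 gene spans and in 50 kb on both sides were taken, which gave 900 of the 600268 summits deposited for all libraries.

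Open chromatin was mapped by ATAC-seq, in which a transposase cuts and tags accessible DNA, in conventional dendritic cells sorted from mouse spleen. The cDC1 were XCR1+CD11b- and the cDC2 XCR1-CD11b+, both among lineage-negative CD11c+MHCII+CD64- cells. There were 2 libraries each of KO cDC1, WT cDC1, KO cDC2 and WT cDC2. KO cells came from mice with a floxed Hdac1 gene and Mx1-Cre, and WT cells from mice with the floxed gene and no Cre. All mice, controls included, had received poly I:C, an interferon inducer that switches Mx1-Cre on, and cells were sorted 2 weeks later. Mx1-Cre acts in many interferon-responsive cell types and not in dendritic cells alone. Nothing in the labels says whether the 2 libraries of a group came from separate animals, so the p-values given here reflect the spread among these libraries alone.

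The 2 subsets of conventional dendritic cells share a precursor and divide the work of priming T cells: cDC1 take up dead cells and present their antigens to CD8 T cells, and cDC2 mainly serve CD4 T cells. Each subset opens its own distal regulatory elements, many of them inside introns or far from any promoter, while most promoters of active genes are open in both. The 9 genes are better known from other tissues. P3h2, Chst9 and Pcsk5 encode enzymes that modify proteins on the secretory route, Plcb4, Dlg2 and Kcnh8 act in signalling and excitability of neurons, and Dcdc5, Luzp2 and Ankrd31 are structural or germline genes. HDAC1 is a histone deacetylase, an enzyme that removes acetyl groups from histones and is usually linked to closed chromatin.

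Pcsk5 and Plcb4 had called summits at a listed gene start in all 4 cDC1 libraries, and their start regions are printed here because the summits fall inside them or just beside them. Both are RefSeq sequences of build GRCm38.p6, from 250 bases before to 50 after the start, on the strand of the gene. Capitals mark the stretch between the outermost of the 4 cDC1 summits. The Pcsk5 region is chr19:17837583-17837882 on the minus strand, with capitals from 17837620 to 17837682. The Plcb4 region is chr2:135659297-135659596 on the plus strand, with capitals from 135659378 to 135659477.
Pcsk5 start region: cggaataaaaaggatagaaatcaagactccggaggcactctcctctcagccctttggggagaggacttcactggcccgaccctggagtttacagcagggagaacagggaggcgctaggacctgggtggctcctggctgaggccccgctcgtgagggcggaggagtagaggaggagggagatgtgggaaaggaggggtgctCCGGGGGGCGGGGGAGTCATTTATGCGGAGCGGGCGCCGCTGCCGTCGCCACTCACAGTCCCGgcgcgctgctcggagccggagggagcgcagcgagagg
Plcb4 start region: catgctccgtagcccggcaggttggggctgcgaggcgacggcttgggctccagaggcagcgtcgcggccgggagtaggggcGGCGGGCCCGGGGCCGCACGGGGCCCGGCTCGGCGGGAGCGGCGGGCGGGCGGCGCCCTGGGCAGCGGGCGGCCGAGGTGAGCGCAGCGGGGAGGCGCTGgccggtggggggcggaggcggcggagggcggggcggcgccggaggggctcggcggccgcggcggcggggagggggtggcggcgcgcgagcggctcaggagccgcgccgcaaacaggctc

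At the Pcsk5 start the cDC1 summits lay within a stretch of 63 bases. They ranked in the top 22.8% and 11.9% of their library in KO cDC1 and in the top 39.8% and 25.9% in WT cDC1, where the rank is that of the peak caller's score. Of the cDC2 libraries, replicate 2 of KO cDC2 alone had a summit there, at position -124 from the start and in the top 79.4%. At Plcb4 the summit was called in all libraries, but its position differed. Counted in bases from the start, with minus for upstream, it lay at -169 and -113 in KO cDC1 and at -70 and -146 in WT cDC1. In cDC2 it lay at -871 and -905 in KO cDC2 and at -876 and -176 in WT cDC2. So 3 of 4 cDC2 libraries had their summit outside the printed region, and the fourth had it next to the cDC1 summits. All Plcb4 summits ranked between the top 8.86% and the top 17.8%.

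**Figure D1:**
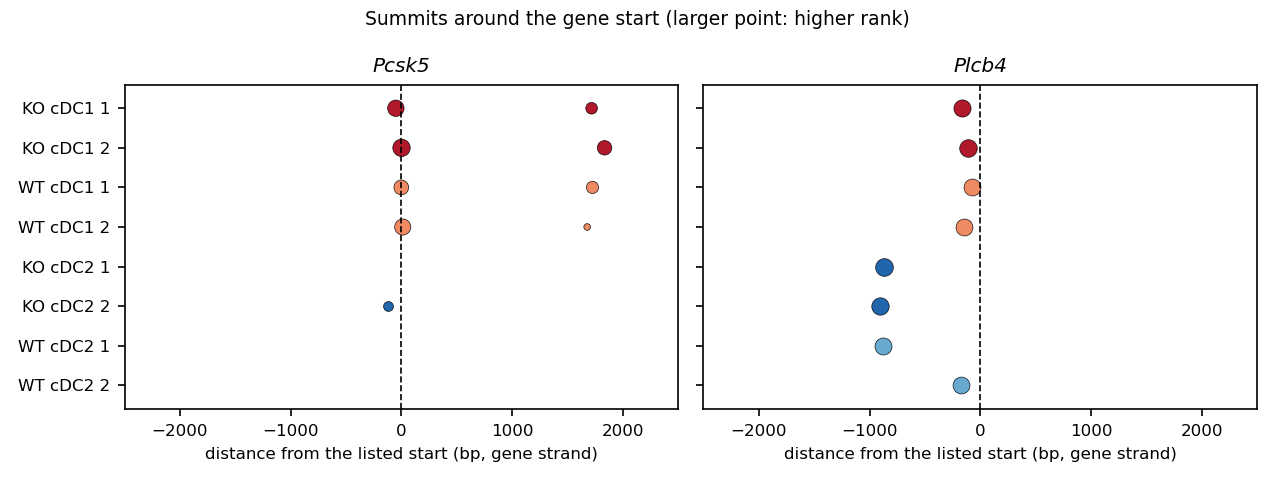
Summits around the listed starts of Pcsk5 and Plcb4, by distance from the start in bases along the gene strand, with 1 line per library and larger points for higher rank. At Pcsk5 the start summit is seen in 4 cDC1 libraries and 1 cDC2 library, and at Plcb4 3 cDC2 libraries have theirs further upstream, between -905 and -871 bases.

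The printed regions were rich in G and C, at 65.7% for Pcsk5 and 84% for Plcb4, against a median of 52.7% over 32851 listed start regions. Both strands were searched for GGAA followed 2 bases later by GAAA (the composite element of PU.1 with IRF4 or IRF8), GAAA followed 2 bases later by GAAA (the interferon response element), TGANTCA (AP-1), GAGGAAGT (PU.1) and GGGCGG (GC box). Neither region held any of the first 4, which occur in 2.72%, 3.44%, 7.81% and 3.2% of all start regions. The GC box occurred 2 times in the Pcsk5 region and 7 times in the Plcb4 region, where some copies overlap, and is found in 35.7% of start regions. A match describes letters only and does not show a bound factor.

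Depth is unknown, because the files hold called summits with scores and no read counts. The lists held 74963 and 96031 summits in KO cDC1, 76022 and 77585 in WT cDC1, 69025 and 78296 in KO cDC2, and 66609 and 61737 in WT cDC2. Replicate 2 of KO cDC1 had the longest list. For counts per gene each list was cut to its 61737 best summits and each summit was given to the nearest protein-coding gene at most 50 kb away. A count of 0 means that no peak was called, which does not show closed chromatin, and a lower count cannot tell fewer cells with an open site from a weaker site in every cell. Hdac1 itself had 1 and 1 summits in KO cDC1, 2 and 1 in WT cDC1, 1 and 1 in KO cDC2 and 1 and 2 in WT cDC2, so the deletion cannot be checked from these lists.

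The summed markers of each subset were higher in that subset, though not every marker was. Summed summits of 10 cDC1 markers ran from 75 to 80 in cDC1 libraries and from 51 to 54 in cDC2 libraries, and those of 10 cDC2 markers from 38 to 47 in cDC1 and from 55 to 58 in cDC2. Cd8a, carried by splenic cDC1, had 5 and 6 summits in KO cDC1, 6 and 7 in WT cDC1, 0 and 1 in KO cDC2 and 0 in both WT cDC2 libraries. Cadm1, a cell adhesion molecule of cDC1, had 24 and 23 in KO cDC1 and 27 and 26 in WT cDC1, against 11 and 14 in KO cDC2 and 14 and 15 in WT cDC2. Clec9a, through which cDC1 sense dead cells, had 1 and 2 in KO cDC1 and 1 and 1 in WT cDC1, against 2 in every cDC2 library, and Batf3, a transcription factor of cDC1, had 9 and 9 in KO cDC1 and 7 and 8 in WT cDC1, against 9 and 9 in KO cDC2 and 10 and 10 in WT cDC2. Xcr1, used in the sort, had no assigned summit in any library. By limma, 3 of 9 tested cDC1 markers were called higher in cDC1 and 2 of 9 tested cDC2 markers lower, and the remaining ones did not pass. Over all genes tested 5.64% were called higher and 4.69% lower in cDC1. The summed markers of other cell types overlapped between the subsets: 8 plasmacytoid cell markers summed to 34 to 39 in cDC1 and 37 to 41 in cDC2, 7 annotated T cell markers to 7 to 15 and 8 to 13, and 6 B cell markers to 19 to 20 and 16 to 22. Likewise 5 NK cell markers summed to 14 to 17 in cDC1 and 16 to 18 in cDC2, 7 macrophage and monocyte markers to 23 to 27 and 22 to 25, and 6 granulocyte markers to 3 to 6 and 5 to 7. Cd3g, Mpo and Elane were at 0 in all libraries. The part of such cells in the results was not tested.

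In lists of equal length the 9 genes together had 108 and 118 summits in KO cDC1, 114 and 111 in WT cDC1, 40 and 43 in KO cDC2, and 34 and 46 in WT cDC2. This is 113 ± 4.27 summits per cDC1 library and 40.8 ± 5.12 per cDC2 library (SD, n = 4 each). All 9 genes passed the filter on low counts, which asked for an average of 1 summit or more per library. Each of the 9 had more summits in every cDC1 library than in any cDC2 library, which 5.79% of the 14065 genes tested share, but this contrast chose the genes. By size they fall into genes with no or almost no called summit in cDC2 (Chst9, Pcsk5, Ankrd31, Luzp2, Dcdc5) and genes with summits in both subsets and more of them in cDC1 (P3h2, Plcb4, Dlg2, Kcnh8). The cDC2 summits of Kcnh8 lay almost all in its flanks.

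Among the enzymes of the secretory route, Chst9, a sulfotransferase that adds sulfate to sugar chains of glycoproteins, had 4 and 8 summits in KO cDC1 and 9 and 7 in WT cDC1, against 0 in all 4 cDC2 libraries. Pcsk5, a proprotein convertase that cuts precursor proteins into their active forms, had 4 and 5 in KO cDC1 and 4 and 3 in WT cDC1, again against 0 in every cDC2 library. P3h2, a prolyl hydroxylase of collagen, had 18 and 18 in KO cDC1 and 20 and 19 in WT cDC1, against 5 and 7 in KO cDC2 and 4 and 6 in WT cDC2. The groups did not overlap at any of the 3, and P3h2 alone kept several summits in cDC2. On the log2(summits + 1) scale the difference between cDC1 and cDC2 was 2.95 for Chst9, 2.31 for Pcsk5 and 1.62 for P3h2.

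Of the signalling genes, Plcb4, a phospholipase that turns signals from Gq-coupled receptors into inositol trisphosphate and diacylglycerol, had 27 and 29 summits in KO cDC1 and 27 and 25 in WT cDC1, against 13 and 15 in KO cDC2 and 9 and 13 in WT cDC2. Dlg2, a membrane scaffold of synapses, had 30 and 31 in KO cDC1 and 30 and 34 in WT cDC1, against 20 and 18 in KO cDC2 and 19 and 22 in WT cDC2. Kcnh8, a voltage-gated potassium channel, had 8 and 8 in KO cDC1 and 7 and 8 in WT cDC1, against 2 and 2 in KO cDC2 and 2 and 3 in WT cDC2. Inside the Kcnh8 span, with all deposited summits, there were 5 and 5 in KO cDC1 and 4 and 4 in WT cDC1. In cDC2 there were 0 and 1 in KO and 0 and 0 in WT. The loci of these genes were open in both subsets at some sites, for Kcnh8 mainly in the flanks. The log2 differences were 1.07 for Plcb4, 0.64 for Dlg2 and 1.44 for Kcnh8. Dlg2 had the most summits of the 9 in either subset and the smallest difference.

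Dcdc5, which encodes a protein with doublecortin domains that bind microtubules in related proteins, had 10 and 9 summits in KO cDC1 and 9 and 6 in WT cDC1, against 0 and 0 in KO cDC2 and 0 and 2 in WT cDC2. Luzp2, a leucine zipper gene of the brain, had 4 and 5 in KO cDC1 and 4 and 5 in WT cDC1, against 0 and 1 in KO cDC2 and 0 and 0 in WT cDC2. Ankrd31, needed in germ cells to place the DNA breaks of meiosis, had 3 and 5 in KO cDC1 and 4 and 4 in WT cDC1, against 0 in all cDC2 libraries. Here single cDC2 libraries carried the few summits seen in that subset. The log2 differences were 2.83 for Dcdc5, 2.20 for Luzp2 and 2.31 for Ankrd31.

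**Figure D2:**
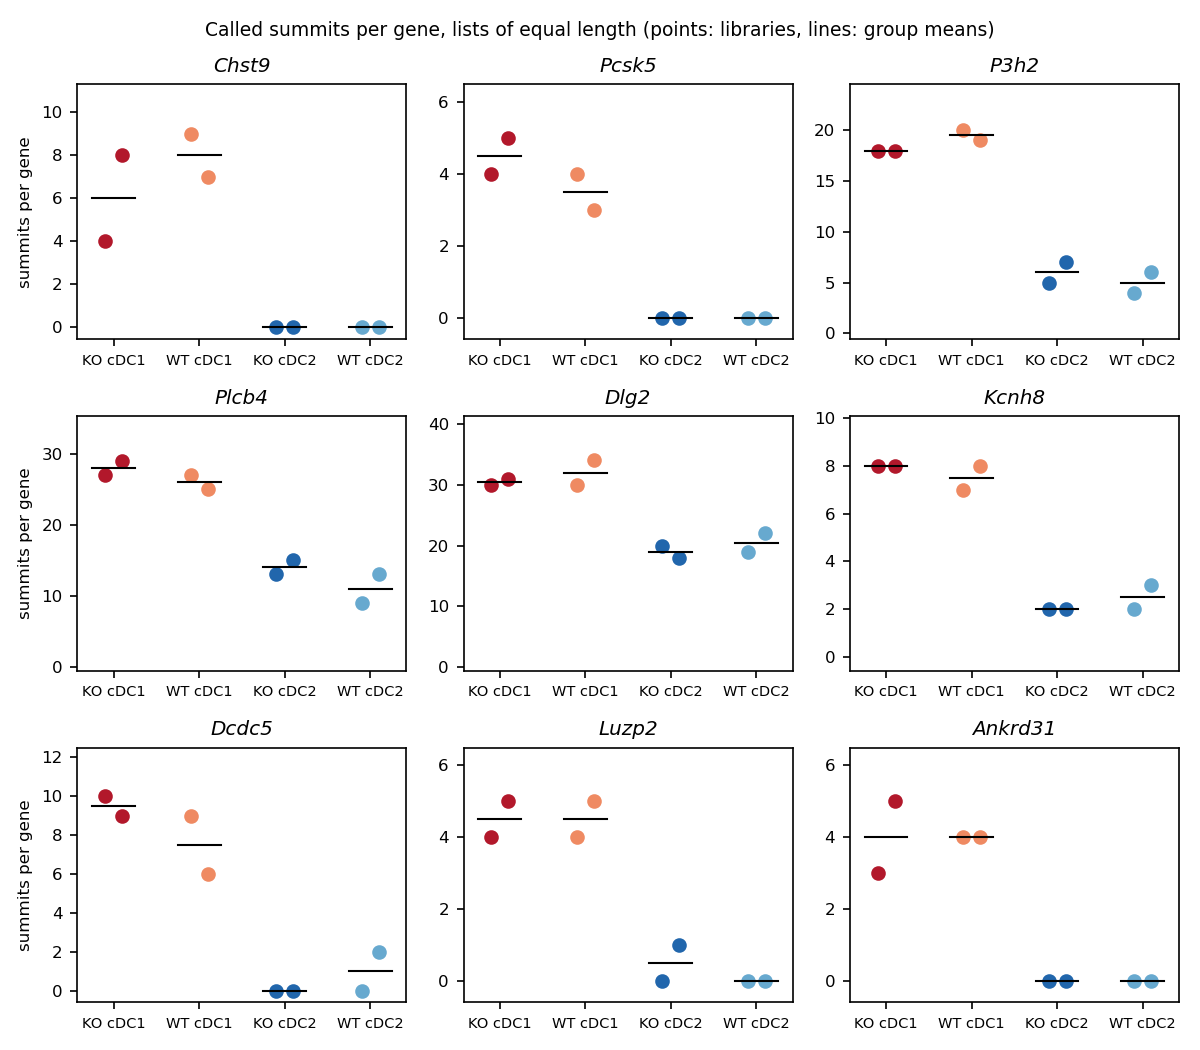
Summits given to each of the 9 genes in lists of equal length, with 1 point per library, a line at each group mean and its own scale from 0 for each gene. All 4 cDC1 libraries lie above all 4 cDC2 libraries at every gene, and Chst9, Pcsk5 and Ankrd31 stand at 0 in cDC2.

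The genes are long. Their spans ran from 146.5 kb for P3h2 to 1973.1 kb for Dlg2, against a median of 25.5 kb for the genes tested, and even P3h2 was longer than 91.3% of them. Per 100 kb of span and flanks, with all deposited summits, P3h2 had 9.33 summits per cDC1 library and 2.23 per cDC2 library, and Plcb4 had 8.61 and 3.29 in the same order. These 2 genes stood above the median of the genes tested in cDC1, which was 7.1 summits per 100 kb, and below it in cDC2, where it was 6.15. The other 7 were sparse in both subsets, from 1.03 for Luzp2 to 3.06 for Ankrd31 in cDC1 and from 0.0612 for Chst9 to 1.4 for Dlg2 in cDC2. A long gene gathers more summits at the same density, so the counts above do not rank the genes by openness.

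Summits of all libraries that lay within 250 bases of each other were chained into sites, which gave 263 sites at the 9 loci. Of these, 55 were cDC1-only, meaning a summit in all 4 cDC1 libraries and in no cDC2 library. This is 20.9% of the sites, against 4.84% of the 142072 sites of the whole series, a share the choice of genes had fixed in part. Another 24 of the 263 sites were found in all libraries, and 2 of the 263 were cDC2-only. Over the series 34548 of 142072 sites (24.3%) were found in all libraries and 1714 (1.21%) were cDC2-only. The choice of genes bears on these shares too. The remaining 182 were mixed, of which 106 were seen in cDC1 libraries alone but in 1 to 3 of them. Single libraries gave 63 of those 106, and 20 of the 63 came from replicate 2 of KO cDC1, the longest list.

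All 9 loci had at least 2 cDC1-only sites. Chst9 had 6 of 20 sites, Pcsk5 2 of 12, P3h2 11 of 35, Plcb4 10 of 57, Dlg2 11 of 87, Kcnh8 4 of 11, Dcdc5 6 of 16, Luzp2 3 of 10 and Ankrd31 2 of 15. Inside the gene spans lay 48 of the 55, and 7 lay in the flanks. No cDC2 summit lay within 1 kb of 51 of the 55, and none within 10 kb of 33. The cDC1-only rule and the choice of the loci fix these counts in part. The same share was not determined for the series. The deposited lists differ in length, and with lists of the shortest length there were 49 cDC1-only sites. Few sat at a promoter: 2 of 55 (3.64%) lay within 1 kb of a listed gene start, against 3.39% of the 6870 cDC1-only sites of the series and 27% of its 34548 sites found in all libraries. Of the 2, 1 lay 0.906 kb from the Luzp2 start and the other within 1 kb of one of the 3 listed Dlg2 starts. None lay in, or within 1 kb of, a non-coding gene or pseudogene nested in the spans. The listed starts cover the promoter table used here, in which Chst9 and P3h2 were not matched.

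**Figure D3:**
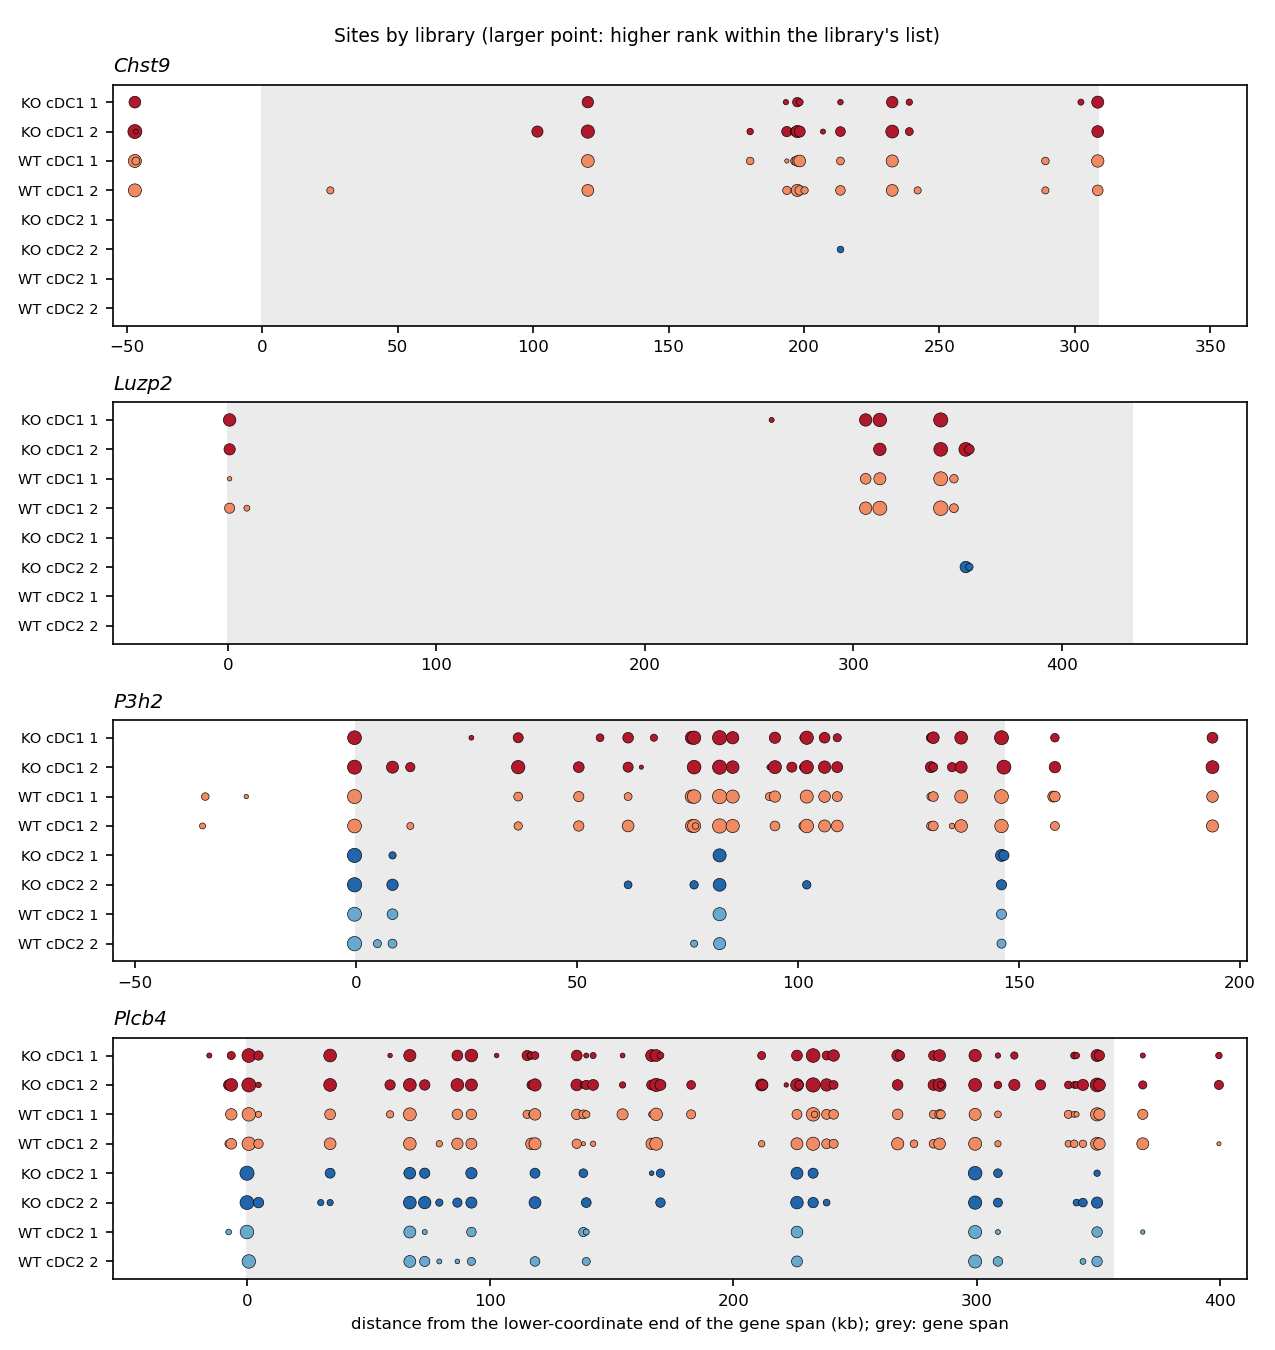
Sites with a summit at Chst9, Luzp2, P3h2 and Plcb4, by distance in kb from the lower-coordinate end of the gene span (grey), with 1 line per library and larger points for higher rank within the library. Columns of points in the 4 cDC1 lines with none below them are cDC1-only sites, and at P3h2 and Plcb4 some columns run through all 8 lines.

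The highest ranked cDC1-only site of the 9 loci lay in Luzp2, at chromosome 7, 55177113 to 55177122, 342 kb from the listed start. It was in the top 7.86% and 14% of the summits in KO cDC1 and the top 10.8% and 2.72% in WT cDC1, and the nearest cDC2 summit was 12.1 kb away. The site 0.906 kb from the Luzp2 start (54836092 to 54836210) ranked lower and less evenly, at the top 30.2% and 45.4% in KO cDC1 and the top 98.9% and 56.9% in WT cDC1. A pair of Luzp2 sites, at 55189091 to 55189172 and 55190858 to 55190878, was called in replicate 2 of KO cDC1 and replicate 2 of KO cDC2 and in no other library.

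At Chst9 the best cDC1-only site (chromosome 18, 15404816 to 15404867) was in the top 39.2% and 10.4% in KO cDC1 and the top 22.8% and 23.1% in WT cDC1. It lay in the lower flank and inside the span of Aqp4, a water channel gene, and it was the single cDC1-only site of the 55 nearer to another protein-coding gene than to its member. A further site lay at the upper end of the Chst9 span, at 15760138 to 15760240, in the top 35.3% and 38% in KO cDC1 and the top 32% and 51.5% in WT cDC1. Whether this end is the start of the gene could not be read from the annotation used, which gives no strand. At Pcsk5 the best site (chromosome 19, 17845299 to 17845335) lay 7.68 kb upstream of the start and was in the top 23.1% and 25.6% in KO cDC1 and the top 31.4% and 24.6% in WT cDC1. Ankrd31 had the weakest best site, in its lower flank (chromosome 13, 96709982 to 96710341), at the top 64.8% and 56.9% in KO cDC1 and the top 43.6% and 62.5% in WT cDC1.

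Some of the strongest sites of the loci in cDC1 also had a summit in cDC2, in 1 library or in all 4, and ranked higher in cDC1. At Kcnh8 a site at chromosome 17, 52626172 to 52626250, was in the top 6.89% and 4.91% in KO cDC1 and the top 7.99% and 4.52% in WT cDC1. Among the cDC2 libraries replicate 2 of KO cDC2 alone had a summit there, at the top 98.8%, near the bottom of its list. At Dlg2 a site at chromosome 7, 92165132 to 92165355, was in the top 8.34% and 3.09% in KO cDC1 and the top 7.51% and 6.11% in WT cDC1, against the top 87.4% and 64.2% in KO cDC2 and the top 60.8% and 67% in WT cDC2. A second Dlg2 site, at 91740955 to 91740989, was in the top 5.96% and 5.85% in KO cDC1 and the top 6.08% and 7.7% in WT cDC1, against the top 46.5% and 22.6% in KO cDC2 and the top 60.8% and 56.3% in WT cDC2. These sites do not count as cDC1-only. They were picked after their values were seen, at loci chosen for this contrast, so the gap in rank between the subsets is a description.

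P3h2 showed the same kind of site at chromosome 16, 26041497 to 26041546, in the top 6.48% and 7.89% in KO cDC1 and the top 5.7% and 6.61% in WT cDC1, against the top 22.7% and 26.3% in KO cDC2 and the top 22.4% and 34.4% in WT cDC2. Other shared sites went the other way or ranked alike. The site just below the P3h2 span, at 25958867 to 25958982, was in the top 13.4% and 9.91% in KO cDC1 and the top 9.14% and 13.5% in WT cDC1, against the top 6.36% and 6.56% in KO cDC2 and the top 11% and 5.55% in WT cDC2. A Dlg2 site at chromosome 7, 91716856 to 91716930, was in the top 14% and 6.99% in KO cDC1 and the top 14.5% and 7.92% in WT cDC1, against the top 3% and 3.97% in KO cDC2 and the top 3% and 2.2% in WT cDC2. The 2 cDC2-only sites, in Dlg2 and in the upper flank of Ankrd31, were weak, with median ranks in the top 77.2% and 83.8% of the cDC2 lists.

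At the gene starts the 9 loci differed. Luzp2 and Dlg2 had a summit within 1 kb of a listed start in all 4 cDC1 libraries and in no cDC2 library. Of the 11264 tested genes with a listed start, 39 (0.346%) had this pattern. The genes were chosen for this contrast, so the rarity of the pattern is not a result. The sites lay 0.906 kb from the Luzp2 start and 0.807 kb from a Dlg2 start, and not at the start itself. The 3 listed Dlg2 starts, on the plus strand, all lie inside the gene span. At the lower end of that span, 615 kb from the nearest listed start, a site (90476062 to 90476173) was found in all 8 libraries. It ranked in the top 0.148% to 0.837% and is the one at the Tmem126b start. Dlg2 therefore had a called summit shared by both subsets at that end. Pcsk5 had a summit within 1 kb of a listed start in 4 cDC1 libraries and 1 cDC2 library, and Plcb4 in all 8. Kcnh8 had one in 1 cDC2 library and no cDC1 library, and Dcdc5 and Ankrd31 had none in any library. For comparison, 78.1% of the tested genes with a listed start had a summit there in all 4 cDC1 libraries. So Dcdc5, Ankrd31 and Kcnh8 carried their cDC1 summits without a called cDC1 summit within 1 kb of the listed start. Some sites lay a little farther off. A Kcnh8 site at 52600896 to 52601251, below the start at 52602709, was found in all libraries. A Dcdc5 site 1.18 kb from the start had a summit in both KO cDC1 libraries, no WT cDC1 library and 3 cDC2 libraries.

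The design asks whether loss of Hdac1 changed open chromatin within each subset, and the genotype did not choose these genes. None of the 9 was called between KO and WT in cDC1 or over both subsets, or for the difference between its genotype effects in the subsets, and none of the 6 with any summit in cDC2 was called there (limma on log2(summits + 1), Benjamini-Hochberg threshold 0.05 over 14065 genes). In cDC2 no test was possible for Chst9, Pcsk5 and Ankrd31, which had 0 summits in all 4 libraries and passed the filter only through cDC1, so in the contrasts that join the subsets their values come from cDC1 alone. Dcdc5 and Luzp2 had summits in 1 cDC2 library each and also passed through cDC1. Calls over all genes tested made up 0.0498% in cDC1, 0.0782% in cDC2, 0.0427% over both subsets and 0% for the difference of effects. At an unadjusted p under 0.05 the count was also 0 of 9 in cDC1, 0 of 6 in cDC2, and 0 of 9 over both subsets and for the difference of effects, and over all genes it was 742, 793, 877 and 537. The log2 differences of KO minus WT ran from -0.42 (Chst9) to 0.33 (Dcdc5) in cDC1 and from -0.79 (Dcdc5) to 0.50 (Luzp2) in cDC2, with SE between 0.243 and 0.382. With 2 libraries a group, differences of this size cannot be told from none.

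Dcdc5 in cDC2 was the member nearest to a call. It had 0 and 0 summits in KO cDC2 and 0 and 2 in WT cDC2, a log2 difference of -0.79 (SE 0.382, limma adjusted p = 0.898), and all of it rests on replicate 2 of WT cDC2. Without replicate 1 of WT cDC2 the difference was -1.58 and passed (limma adjusted p = 0.00566), as did the difference of genotype effects (1.91, limma adjusted p = 0.0287). Chst9 in cDC1 had the lowest p of the 9 in that contrast, with 4 and 8 summits in KO cDC1 and 9 and 7 in WT cDC1 (log2 difference -0.42, SE 0.29, limma adjusted p = 1).

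The strength of sites was compared between genotypes by the rank of their score within the library, on a normal scale, over the 52565 sites found in all 4 cDC1 libraries. None of the 106 such sites at the 9 loci passed (limma, lowest adjusted p = 0.60), with 0% of all 52565 sites called. At an unadjusted p under 0.05 there were 4 of 106, against 4014 of 52565. KO was higher than WT at 55 of 106 sites, the median difference was 0.02 and the values ran from -1.57 to 1.55. Among the 55 cDC1-only sites 26 were higher in KO, and the median was -0.05. The largest fall was at a weak site above Plcb4 (chromosome 2, 136026794 to 136026946), in the top 95.4% and 74.8% in KO cDC1 and the top 56.5% and 36.6% in WT cDC1. A Dcdc5 site at 106159889 to 106159921 was in the top 29.2% and 18.4% in KO cDC1 and the top 45.4% and 42.6% in WT cDC1. It did not pass (difference 0.63, SE 0.22, limma adjusted p = 0.634).

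**Figure D4:**
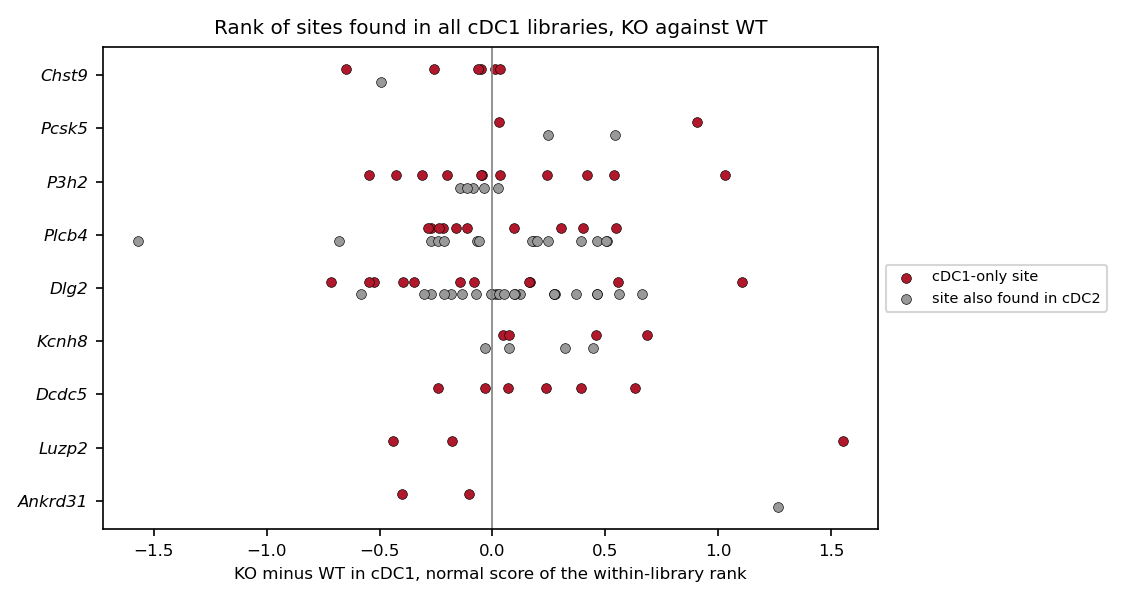
Difference of KO minus WT in cDC1 in the normal score of the within-library rank, with 1 point for each of the 106 sites found in all 4 cDC1 libraries, by gene and by whether cDC2 also had a summit. The points spread to both sides of 0 at most genes, from -1.57 to 1.55, and none passed the test.

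By presence alone, most cDC1 sites defined in one genotype were also found in cDC1 of the other, but some also had a summit in its cDC2. Of 82 sites at the 9 loci with a summit in both WT cDC1 libraries and in no WT cDC2 library, 70 (85.4%) had one in both KO cDC1 libraries, against 69.8% over the series. Of 70 sites defined in the same way in KO, 58 (82.9%) were found in both WT cDC1 libraries, against 63.1%. A summit in a KO cDC2 library was present at 16 of the 82 WT-defined sites (19.5%), against 27.9% over the series, and a summit in a WT cDC2 library at 3 of the 70 KO-defined sites (4.29%), against 14.6%. The genes had been chosen on libraries of both genotypes, so the gap to the series is not a result. Of the 243 sites seen in any cDC1 library, 6 (2.47%) were in both KO and no WT library, against 3.79% over the series, and 3 (1.23%) in both WT and no KO library, against 1.47%. The 6 lay in Dlg2 and Plcb4 (2 each), Chst9 and Dcdc5, and the 3 in Chst9, Luzp2 and Dlg2.

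Distal sites often act on a gene other than the nearest, so the 2 nearest protein-coding genes on each side of every member were tested in the same way. They were chosen by position. Of 36 neighbours 30 passed the filter, but 7 of these had summits inside the 50 kb flanks of the member, which belong to the loci chosen for this contrast, and for them the values are a description. Of the other 23, in cDC1 1 rose (Cldn16), 2 fell (Ostf1 and 1700029F12Rik) and 20 did not pass, against 5.64% of all tested genes higher and 4.69% lower in cDC1, with a median log2 difference of -0.02 over the 23 and 0 over all genes tested.

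Aqp4 beside Chst9 and Tmem126b beside Dlg2 also had more summits in cDC1, in part or in whole from the flanks of these members. Aqp4, which lies 40.8 kb from the Chst9 span, had 1 and 2 summits in KO cDC1 and 2 and 2 in WT cDC1, against 0 and 0 in KO cDC2 and 0 and 1 in WT cDC2 (log2 difference 1.19). In the Chst9 flank lay 5 of its 8 summits, and they include the best cDC1-only site described at the Chst9 locus. Tmem126b, an assembly factor of mitochondrial complex I that ends 0.193 kb from the Dlg2 span, had 1 and 1 in KO cDC1 and 2 and 3 in WT cDC1, against 0 and 0 in KO cDC2 and 1 and 0 in WT cDC2 (1.15). These groups touch at 1 summit, and all 8 of its summits lay in the Dlg2 flank. The summit at the Tmem126b start, in the top 0.148% to 0.837% of all 8 libraries, was given to Dlg2, which is nearer. With every summit in 50 kb of the Tmem126b span counted the difference was 0.25, and in 5 kb 0.54. Cldn16, a tight junction claudin known from the kidney, had 3 and 0 in KO cDC1 and 3 and 3 in WT cDC1, against 0 and 1 in KO cDC2 and 0 and 0 in WT cDC2 (1.25, SE 0.333, limma adjusted p = 0.0268). Its groups overlap, because replicate 2 of KO cDC1 had none, and without replicate 1 of KO cDC1 the difference was 0.75 (limma adjusted p = 0.0373). Cldn16 averaged 2.25 summits in cDC1 and 0.25 in cDC2, so it passed the filter only through cDC1. Its call was lost in 4 of 15 alternative settings, among them the fit without the filter (limma adjusted p = 0.0923).

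Ostf1 and 1700029F12Rik fell, and Rfk, all of whose 12 summits lay in the Pcsk5 flank, had fewer summits in cDC1. Ostf1, an SH3 adaptor named from osteoclasts, had 5 and 6 summits in KO cDC1 and 6 and 6 in WT cDC1, against 9 and 11 in KO cDC2 and 12 and 15 in WT cDC2 (-0.90, SE 0.178, limma adjusted p = 0.00444). Rfk, which makes flavin mononucleotide, had 1 in each cDC1 library and 2 in each cDC2 library (-0.58), and 0 was the difference when every summit in 5 kb of its span was counted. 1700029F12Rik had 2 and 2 in KO cDC1 and 1 and 1 in WT cDC1, against 3 and 3 in KO cDC2 and 2 and 3 in WT cDC2 (-0.60, SE 0.182, limma adjusted p = 0.0463). The call of Ostf1 was lost in 3 of 19 alternative settings: -0.57 (limma adjusted p = 0.0685) with all deposited summits, -0.46 (limma adjusted p = 0.127) with every summit in 5 kb of its span, and -0.51 (limma adjusted p = 0.107) with summits at most 10 kb from the nearest gene. That of 1700029F12Rik was lost in 11 of 15 alternative settings, and 1 more setting turned its direction. Without 1 library it held only where replicate 1 of WT cDC2 was left out (-0.71, limma adjusted p = 0.0228), and its limma adjusted p was highest, 0.152, without replicate 2 of WT cDC2 (-0.50).

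The nearest neighbours on either side that did not pass included genes of known immune roles. Siglech, a surface lectin of plasmacytoid dendritic cells 499 kb above Luzp2, had 4 and 4 summits in KO cDC1 and 3 and 5 in WT cDC1, against 4 and 4 in KO cDC2 and 4 and 5 in WT cDC2 (-0.08, limma adjusted p = 0.903). Satb1, a chromatin organiser of lymphocytes below Kcnh8, had 4 and 7 in KO cDC1 and 5 and 5 in WT cDC1, against 5 and 6 in KO cDC2 and 8 and 9 in WT cDC2 (-0.35, limma adjusted p = 0.307). The others were Dnajc24 (0.54, adjusted p = 0.0961) below Dcdc5, Gcnt4 (0.04) beside Ankrd31, Trp63 (-0.62, adjusted p = 0.0569) and Cldn1 (0.21) around P3h2, Plcb1 (-0.51, adjusted p = 0.0859) below Plcb4, Ccdc90b (0.04) above Dlg2 and Efhb (-0.43) above Kcnh8, all from limma. Trp63 passed as lower in cDC1 in some other settings, such as every summit in 5 kb of its span (-0.70, limma adjusted p = 0.0182). With all deposited summits it did not pass. Lamp5 above Plcb4 and Cdh2 above Chst9 had no summit in lists of equal length, though with all deposited summits 3 cDC1 libraries and no cDC2 library had one within 1 kb of a Lamp5 start, and Mpped2 above Dcdc5 and 1700015G11Rik below Luzp2 were too sparse to test. Immp1l, the second gene below Dcdc5, also fell short of the filter, with 2 and 2 in KO cDC1, 2 and 1 in WT cDC1 and 0 in all cDC2 libraries. With all deposited summits both genes below Dcdc5 were called higher in cDC1, Immp1l at 1.79 (limma adjusted p = 7.77e-05) and Dnajc24 at 1.01 (limma adjusted p = 0.0056). With every summit in 50 kb of the span they were at 0.89 (limma adjusted p = 0.00493) and 1.06 (limma adjusted p = 0.0107). That window of Dnajc24 reaches into the Dcdc5 flank. In these settings 5 neighbours each were called higher in cDC1, and 0 and 6 lower. Of the 28 neighbours with a listed start, 20 had a summit there in all 8 libraries, 5 in none, and 0 in all cDC1 and no cDC2 library.

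**Figure D5:**
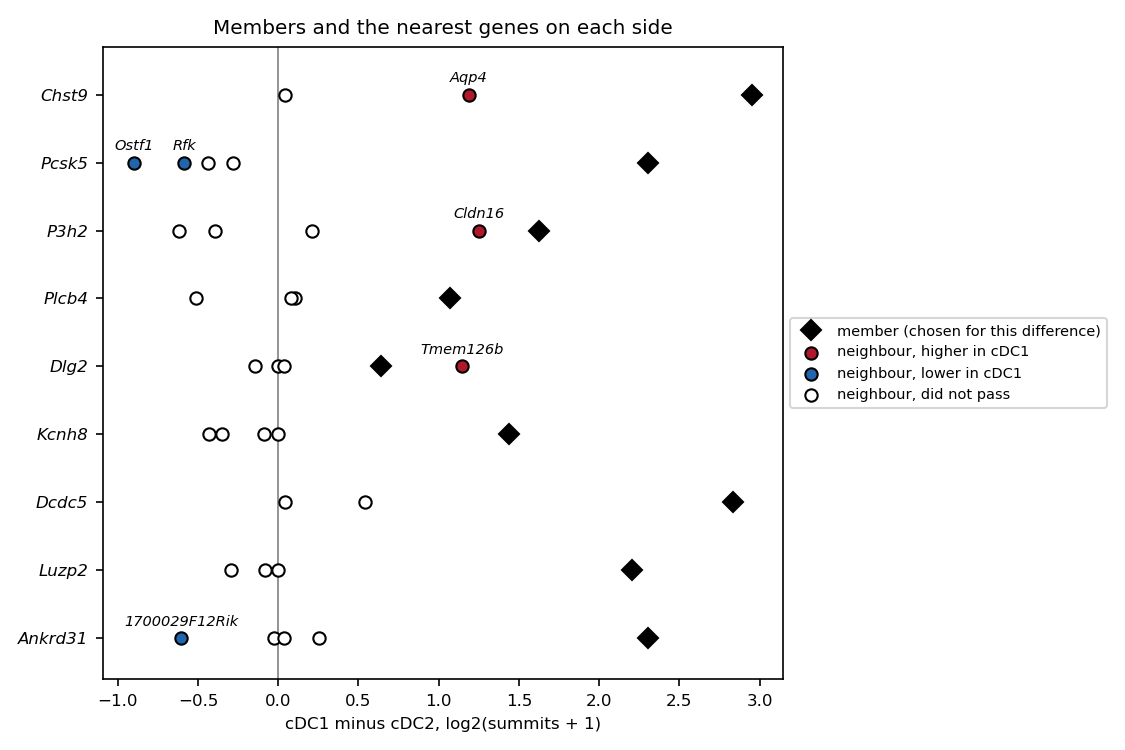
Difference between cDC1 and cDC2 in log2(summits + 1) for the 9 genes (diamonds) and their tested neighbours (circles, filled where the adjusted p passed). The members, chosen for this difference, lie between 0.64 and 2.95, and the neighbours lie on both sides of 0, from -0.90 (Ostf1) to 1.25 (Cldn16). The named circles passed, and of these Aqp4, Tmem126b and Rfk had summits in the flanks of the members.

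Gene families of the 9 showed no common direction. Of 53 annotated relatives 41 were tested, and in cDC1 4 rose, 3 fell and 34 did not pass, with a median log2 difference of 0. Over all genes tested 5.64% were called higher and 4.69% lower in cDC1. The 4 were Dclk2, a kinase with doublecortin domains (0.66, limma adjusted p = 0.0438), Luzp1 (0.81, adjusted p = 0.0148), Plcb2, the phospholipase C beta of blood cells (1.05, adjusted p = 0.00688), and Iho1, a partner in meiotic break formation (1.00, adjusted p = 0.00198). The 3 were the sulfotransferases Chst2 (-1.50, limma adjusted p = 0.000281) and Chst8 (-0.87, adjusted p = 0.0135) and the prolyl hydroxylase P3h1 (-0.79, adjusted p = 0.0154). Plcb2 had 6 and 5 summits in KO cDC1 and 5 and 6 in WT cDC1, against 1 and 3 in KO cDC2 and 3 and 2 in WT cDC2. Chst2 had 2 and 2 in KO cDC1 and 0 and 0 in WT cDC1, against 3 and 5 in KO cDC2 and 3 and 5 in WT cDC2. The call of Dclk2 was lost in 10 of 19 alternative settings, with 0.49 (limma adjusted p = 0.177) without replicate 2 of KO cDC1 and 0.57 (limma adjusted p = 0.0990) without replicate 1 of WT cDC1. Without either KO cDC2 library the difference for Dclk2 was 0.66 (limma adjusted p = 0.0637 without replicate 1 and 0.0629 without replicate 2). The call of Luzp1 was lost in 2 of 19, among them the fit without replicate 1 of KO cDC2 (0.67, limma adjusted p = 0.0525). With all deposited summits Chst2 was at -0.51 (limma adjusted p = 0.21) and Iho1 at 0.50 (limma adjusted p = 0.115). With every summit in 50 kb of the span Iho1 was at 0.47 (limma adjusted p = 0.0632), P3h1 at -0.15 (limma adjusted p = 0.481) and Plcb2 at 0.61 (limma adjusted p = 0.0367), and with the 30868 best summits per list Chst8 was at 0. By family, 0 of 11 sulfotransferases rose and 2 fell, 1 of 5 doublecortin genes, 1 of 5 meiotic genes and 1 of 3 phospholipases rose, 1 of 4 collagen hydroxylases fell, and 0 of 3 convertases, 0 of 4 membrane scaffolds of the Dlg family and 0 of 5 channels passed.

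Iho1 was the one relative called with genotype. It had 0 and 0 summits in KO cDC2 and 2 and 2 in WT cDC2, a log2 difference of -1.58 (SE 0.249, limma adjusted p = 0.024), and 3 and 3 in KO cDC1 against 2 and 2 in WT cDC1, which did not pass (0.42, limma adjusted p = 1). The difference between these effects did not pass either (2.00, limma adjusted p = 0.21). The call in cDC2 was lost in 3 of 17 alternative settings, with -0.58 (limma adjusted p = 0.698) with all deposited summits, -0.54 with every summit in 50 kb of the span, and a limma adjusted p of 0.257 when genes of low counts were kept.

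The genes most like the mean pattern of the 9, by the Euclidean distance of log2(summits + 1) over the 8 libraries, were Phip (distance 0.851), Plce1 (0.961), Homer2 (0.987), Dnajc3 (1.00) and Stx8 (1.05). Phip had 9 and 7 summits in KO cDC1 and 9 and 7 in WT cDC1, against 2 and 3 in KO cDC2 and 1 and 2 in WT cDC2. Plce1 had 12 and 11 in KO cDC1 and 9 and 12 in WT cDC1, against 2 and 2 in KO cDC2 and 2 and 4 in WT cDC2. In these 5 genes too, every cDC1 library lay above every cDC2 library, which the measure of likeness itself favours.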

How the data were processed

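The submitters' processing notes name MACS2, Bowtie2, SAMtools and MultiQC and the builds GRCm38 and mm10; versions and settings are not given in the sources used here. The authors deposited 1 list of summits per library, each with a score. It was taken as a negative log10 q-value (−log10), because the lowest score in the deposited lists lay near 1.3 in every library. Scores were used to rank the summits of 1 library, and a top percent is 100 times the rank over the length of the list. Read counts are not in the lists, so no counting interval could be given.

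The 9 genes, their relatives and the marker lists were chosen with earlier results of these data known. The text names all 9 genes with their values in every library, neighbours and relatives that were called, the nearest neighbour on each side (1 of which is not reported here), the best cDC1-only site of a locus and the 5 genes of most alike pattern; shared sites, Immp1l and the markers Cadm1, Clec9a and Batf3 were chosen after their values were seen.

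Lists were cut to 61737 summits, and a summit went to the closest protein-coding gene, up to 50 kb away, among 21887 in GRCm38.p6. Genes averaging 1 summit or more, 14065 in all, were fitted as log2(summits + 1) with limma 3.58.1 in R 4.3.3, with 4 group means and the rounding variance of a whole number added to each variance. Site ranks were fitted in the 4 cDC1 libraries with 2 group means. Adjusted p-values are Benjamini-Hochberg values over all features. Both fits were tested on simulated data. RefSeq start regions were matched for 7 of the 9 genes. Marker lists covered cDC1, cDC2, plasmacytoid, T, B and NK cells, macrophages and monocytes, and granulocytes.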

Additional observations from a re-analysis of the deposited data

Results flagged for a closer look

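In 34 groups of 4 libraries examined, 8 held a library far from the other 3; the threshold is one that chance passes in about 1 in 20 groups of continuous values, and its rate for small whole numbers, which tie easily, was not determined. In cDC2, Dcdc5 had 2 summits in replicate 2 of WT against 0 in the others, Luzp2 had 1 in replicate 2 of KO against 0, and Kcnh8 had 3 in replicate 2 of WT against 2. In cDC1, Kcnh8 had 7 in replicate 1 of WT against 8. With all deposited summits in spans and flanks, replicate 2 of KO cDC2 had 1 summit at Chst9 and 2 at Luzp2, against 0 in the other cDC2 libraries. Replicate 2 of KO cDC1 had 13 at Ankrd31, against 6 to 7 in the other cDC1 libraries, and its list was the longest of the cDC1 libraries, at 96031 summits.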

How the results depend on the processing

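The number of the 9 genes called by genotype was 0 under every alternative in each of the 4 contrasts, which shows nothing in cDC2 for genes at 0 in all its libraries (Chst9, Pcsk5 and Ankrd31 in lists of equal length), except that it ran from 0 to 1 over the fits without 1 library in cDC2 and in the difference of effects (Dcdc5, without replicate 1 of WT cDC2). In a fit without 1 library, the lone library of that group is assumed to vary like the others. The 106 sites compared by rank gave 0 calls under every alternative run.

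With those in the flanks counted, the 3 neighbours higher in cDC1 became 5 with all deposited summits or with every summit in 50 kb counted, 1 with the 30868 best summits per list or at most 10 kb from a gene, and 0 with a mean of at least 3 summits or without the rounding variance. Leaving out 1 library gave 3 to 4. The 3 lower ones became 0 with all deposited summits, which also raised the median of all genes tested by 0.10 toward cDC1, 6 with every summit in 50 kb and 1 without the filter, and 1 to 3 without 1 library. With all deposited summits 1700029F12Rik turned to 0.0805 (limma adjusted p = 0.904). The 4 relatives higher in cDC1 became 2 without the rounding variance and 2 to 5 without 1 library. The cause was not tested. The 55 cDC1-only sites were 19 with the 30868 best summits per list and 56 to 67 without 1 library, where fewer libraries must meet the rule; without replicate 2 of KO cDC2 there were 67.

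Replicate numbers did not pair the libraries (correlation of deviations 0.002 to 0.036 for summits per gene, -0.01 for site ranks). With the replicate block the 9 genes again gave 0 genotype calls, neighbours 3 higher and 4 lower, relatives 4 higher and sites 0, while calls over all genes for KO minus WT in cDC1 were 95 higher and 18 lower, against 6 and 1 without it. Depth is unknown, so a missing summit is not evidence of closed chromatin.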
